A study of Mus musculus with 6 samples.

Results

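Cd47, Chd4, Gsn, Rab5c and Ccdc88b are the 5 genes followed here, out of 1485 mouse genes with at least 1 listed summit of N4-acetylcytidine (ac4C) pull-down. They were chosen by their number of listed summits, a summit being the position of greatest read depth within a peak, and together they held 25 of 1876 summits on 15 transcripts. Cd47 had 6 listed summits, Chd4, Gsn and Rab5c had 5 each, and Ccdc88b had 4. That number is what chose them, so it is given as a description and supports nothing. Only 17 of the 1485 genes, or 1.14%, had 4 or more listed summits. Ccdc88b tied with 12 other genes at 4, so its place among the 5 rested on the choice of the group and not on a higher number. The 53 genes with 3 summits lay just outside, and the median over these genes of their median fold was 12.3.

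The cells were 32D, a line of mouse bone marrow lymphoblastocytes per the labels, wild type in every group and kept in medium with interleukin 3 at 10 ng/mL and fetal bovine serum. There were 2 libraries from pull-down with an ac4C antibody, 2 from pull-down with IgG and 2 of input with no antibody, all from poly(A) RNA, and no group carried a treatment or a genetic change. The values came from 1 list in which the ac4C libraries appear merged, so none can be split by library, no replicate error can be given and no comparison with IgG or input was run. The labels do not state that the 2 libraries of each kind are separate cultures. Among 12 myeloid marker genes, 5 had a summit (Spi1, Csf2rb, Csf2rb2, Prtn3 and Fcer1g). Il3ra, Mpo, Elane, Kit, Cebpa, Cd34 and Ptprc had none listed. A summit was listed for 0 of 4 B cell, 0 of 4 T cell and 1 of 3 erythroid genes (Hba-a1). Over all 21896 protein-coding genes 6.70% had one, so a list of 4 genes without a summit shows nothing about those cell types, and a summit is not a measure of expression.

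N4-acetylcytidine is made on RNA by the acetyltransferase Nat10. It has long been known in ribosomal and transfer RNA, and in mRNA it has been linked to stability and translation. Antibody mapping breaks the RNA into fragments and pulls down those with the mark, so a marked stretch gives a mound of reads many bases wide rather than a single base. The 5 genes have unrelated products: a surface receptor, a chromatin remodeller, an actin regulator, an endosomal GTPase and a coiled-coil protein of immune cells.

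Fold enrichment is the peak caller's ratio of the read depth at a summit plus 1 to a background plus 1. All 1876 folds of the list were whole multiples of 0.475 within 0.01 of a step, which corresponds to a constant background of 1.11 fragments, so each fold can be turned back into a number of fragments stacked at the summit. The 25 summits of the 5 genes had between 12 and 67 fragments, with a median of 32, against a median of 23 over the whole list. An exact Poisson 95% interval on that number is given beside the main values. It covers counting error only, since reads without molecular identifiers are not independent molecules, and it says nothing about the spread between cultures. Because the background was constant, a high fold can reflect a strongly pulled-down stretch or an abundant transcript, and the list cannot tell these apart.

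Cd47 encodes a membrane protein that binds SIRP-alpha on macrophages and restrains phagocytosis. Its 6 summits lay on 4 transcripts, 3 of them coding and 3 in the 3' untranslated region. Transcript ENSMUST00000229206 had a coding summit at nt 155 with 36 fragments (25.2 to 49.8) and a 3' untranslated summit at nt 1190 with 28 fragments (18.6 to 40.5). Transcript ENSMUST00000229640 had a coding summit at nt 1693 with 42 fragments (30.3 to 56.8) and a 3' untranslated summit at nt 1762 with 40 fragments (28.6 to 54.5). The end of the coding sequence of that transcript therefore lay between these positions, which were 69 nt apart. No other of the 162 pairs of neighbouring summits on 1 transcript in the list was closer together.

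The other Cd47 summits stood alone on their transcripts. ENSMUST00000230836 had the highest of the gene, a coding summit at nt 931 with a fold of 22.8 from 47 fragments (34.5 to 62.5). ENSMUST00000114496 had a 3' untranslated summit at nt 1003 with a fold of 18.5 from 38 fragments (26.9 to 52.2). These 2 positions were 72 nt apart in number but belonged to different regions of different transcripts. The folds of Cd47 ran from 13.8 to 22.8, with the highest 1.66 times the lowest. All 15 pairs of its summits had overlapping counting intervals. Overlap of separate intervals is not a test of a difference, and the order of its summits was not tested.

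Chd4 encodes an ATP-dependent remodeller, the motor subunit of the NuRD complex, which also carries histone deacetylases. All 5 of its summits were in coding sequence, and they are described here as a lower and a higher set, divided by their own fragment numbers. The lower set was at nt 517 of ENSMUST00000112390 with 26 fragments (17.0 to 38.1) and at nt 3019 of ENSMUST00000056889 with 21 fragments (13.0 to 32.1). The higher set was at nt 5183 of ENSMUST00000112390 with 52 fragments (38.8 to 68.2), at nt 5305 of ENSMUST00000112392 with 66 fragments (51.0 to 84.0) and at nt 5356 of ENSMUST00000056889 with 54 fragments (40.6 to 70.5). The counting intervals of the sets did not overlap, with nearest limits of 38.1 and 38.8, which accounted for the 6 of 10 pairs that were apart. Because the sets were divided by these same values, this is a description and supports nothing. The higher summits may also be the same site on different transcripts, so the 6 pairs are not separate contrasts. In folds the sets were 10.4 and 12.8 against 25.2, 26.1 and 31.8.

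The 3 higher summits of Chd4 lay on 3 transcripts within 173 nt of each other in transcript numbering. On both transcripts with a pair, the one farther from the start was the higher, 2.50 times at a distance of 2337 nt on ENSMUST00000056889 and 1.96 times at 4666 nt on ENSMUST00000112390. Within each of these transcripts the caller's numbers skipped 1 and 2 peaks respectively, so the stretch between the listed summits held further peaks that were not analysed here.

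Gsn encodes gelsolin, which severs actin filaments and caps their fast-growing ends when calcium rises. Its 5 summits were all coding and included the lowest folds of the 5 genes. ENSMUST00000201185 had 3 of them, at nt 612 with 12 fragments (6.20 to 21.0), at nt 1998 with 30 fragments (20.2 to 42.8) and at nt 2104 with 32 fragments (21.9 to 45.2). The summits at nt 1998 and 2104 belonged to the same peak and were 106 nt apart, the 6th shortest distance of the 162. ENSMUST00000028239 had a summit at nt 1353 with 12 fragments (6.20 to 21.0) and ENSMUST00000202990 one at nt 1333 with 14 fragments (7.65 to 23.5).

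Of the Gsn summits, 3 had folds of 6.17, 6.17 and 7.12 and 2 had folds of 14.7 and 15.7. The lower 3 were at or below the 26.4th percentile of all listed folds, and the upper 2 were above the list's median of 11.4. Only 2 of the 10 pairs had counting intervals apart, those of the summit at nt 2104 with the summits of 12 fragments. The weakest Gsn summits had a q-value of 5.36e-09 in the authors' deposited table. That comparison was with the constant background, so it cannot tell a marked stretch from an abundant transcript.

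Rab5c encodes one of the 3 Rab5 GTPases, which direct fusion of early endosomes. It had 2 summits in coding sequence and 3 beyond it, in the 3' untranslated region, among them the tallest summit of the 5 genes. That one lay at nt 1200 of ENSMUST00000107364, in the 3' untranslated region, with a fold of 32.3 from 67 fragments (51.9 to 85.1). ENSMUST00000019317 had a coding summit at nt 314 with 32 fragments (21.9 to 45.2) and 3' untranslated summits at nt 1245 with 56 fragments (42.3 to 72.7) and at nt 1656 with 46 fragments (33.7 to 61.4). ENSMUST00000155843 had a coding summit at nt 252 with 27 fragments (17.8 to 39.3).

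All 3 untranslated summits of Rab5c were higher than both coding ones, with folds of 22.3 to 32.3 against 13.3 and 15.7. The counting intervals were apart for 3 of its 10 pairs, the summit at nt 1200 against both coding summits and the one at nt 1245 against the one at nt 252. In Cd47, the other gene with both regions, the folds of coding sequence (17.6 to 22.8) and of the 3' untranslated region (13.8 to 19.5) overlapped. Whether the regions differed in fold beyond the spread between cultures cannot be tested in either gene.

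Ccdc88b encodes a Hook-related coiled-coil protein of hematopoietic cells, known for a role in T cell activation. Its 4 summits were all coding and lay in pairs on 2 transcripts. ENSMUST00000113440 had one at nt 3294 with 25 fragments (16.2 to 36.9) and one at nt 4434 with 14 fragments (7.65 to 23.5). ENSMUST00000236028 had one at nt 2173 with 30 fragments (20.2 to 42.8) and one at nt 3350 with 19 fragments (11.4 to 29.7). The pairs had like distances, 1140 and 1177 nt, and in both the summit nearer the start was the higher, so that the second had 0.577 and 0.645 of the fold of the first. All 6 pairs of intervals overlapped, and these differences were not tested.

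**Figure D1:**
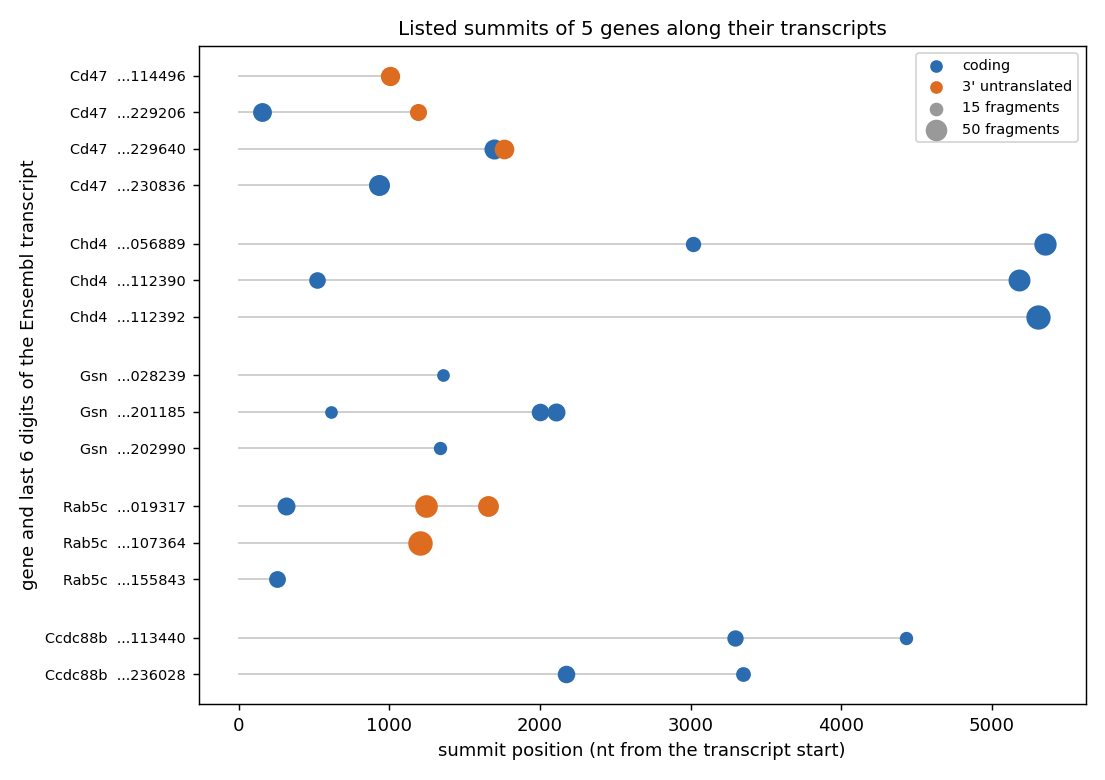
Position of the 25 listed summits in nt from the start of each of 15 transcripts, grouped by gene, with the area of a point growing with its fragments and the colour giving the region. Grey lines run from the transcript start to the last listed summit and do not show transcript length. The 3 large points of Chd4 lie between nt 5183 and 5356 on 3 transcripts, and the points of Cd47 at nt 1693 and 1762 touch across the end of the coding sequence.

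**Figure D2:**
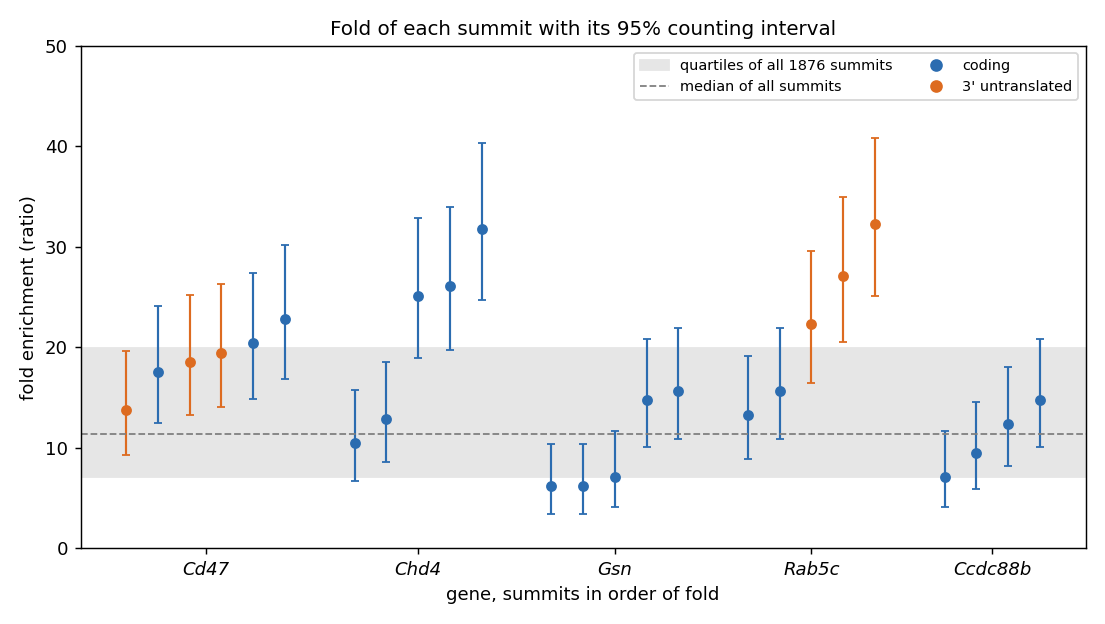
Fold enrichment of each summit, in order within its gene, with 95% Poisson counting intervals and the region as colour. The band gives the quartiles of all listed summits (7.12 to 19.9) and the dashed line their median of 11.4. Chd4 has 2 summits near the median and 3 above the band, and 3 of the 5 Gsn summits are at or below the lower edge of the band.

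The summits of 1 gene were spread over several annotated transcripts, so several listed summits of a gene may be 1 site, while summits that are not listed may add sites. Counting summits of 1 transcript closer than 100 nt as 1 position left 5 positions for Cd47, 5 for Chd4, 5 for Gsn, 5 for Rab5c and 4 for Ccdc88b. The largest number of listed summits on any 1 transcript was 3 for Gsn and Rab5c and 2 for Cd47, Chd4 and Ccdc88b. Summits of 1 transcript are different positions on it, but whether each is a separate marked site was not tested. The summit pairs of 2 transcripts were 4666 and 2337 nt apart in Chd4 and 1035 and 69 nt apart in Cd47. The peak names implied at least 5 summits on ENSMUST00000112390 of Chd4 and at least 5 on ENSMUST00000229206 of Cd47. How many sites gave the summits of these genes was not tested. By the largest number on 1 transcript, 15 genes of the list had 3 or more. The single gene with 4 was Nopchap1, a gene outside the 5. The placement of reads that fit several isoforms was not stated in the labels or notes.

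Some summits on different transcripts of a gene had nearby positions. There were 9 such pairs within 200 nt of each other in transcript numbering, at least 1 in each gene and 8 of them in the same region, and their higher fold was 1.04 to 1.34 times the lower (median 1.22). Examples were Gsn at nt 1333 and 1353 (folds 7.12 and 6.17), Rab5c at nt 252 and 314 (13.3 and 15.7) and at nt 1200 and 1245 (32.3 and 27.1). The 30 pairs that lay farther apart had ratios from 1.0 to 3.05 (median 1.46). In all other genes with summits on several transcripts, 104 of 121 near pairs were in the same region. The ratio in those genes had a median of 1.27 over the near pairs (range 1.0 to 5.24) and of 1.67 over 172 far pairs (range 1.0 to 13.9). Whether a near pair is 1 site in the genome was not tested, since nearby numbers on different transcripts need not be the same sequence. Pairs that share a gene or a summit are not independent, and these are descriptions with no test.

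The names of the peaks showed that the listed summits were part of a larger call. Peak numbers followed the order of transcript identifiers and then of positions in all 1875 steps from 1 entry to the next, with 0 inversions. Numbers skipped between listed peaks of 1 transcript were therefore further peaks of that transcript. A letter at the end of a name marks 1 of several summits in a peak, so that the letter e stands for at least 5. Counted this way, the 15 transcripts of the 5 genes had at least 45 summits, of which 25 were listed, and 4 skipped peaks added to the difference.

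The least number of summits implied by the names differed between the genes, while the full number is unknown for each. Rab5c had at least 12 summits, of which 7 or more were not listed, from the letters b, c and e on ENSMUST00000019317 and d on ENSMUST00000107364. Cd47 also had at least 12, 6 of them not listed; a single peak of ENSMUST00000229206 held the summits a and e, at nt 155 and 1190, and hence 3 more between them. Chd4 had at least 11, with 6 not listed. Gsn had at least 6, with 1 skipped peak between nt 612 and 1998. Ccdc88b had at least 4, the same as listed, with no letters and consecutive numbers on both of its transcripts.

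Ordered by that least number, the first places changed. Nopchap1, with 4 listed summits on 1 transcript, led with at least 22, of which 17 were skipped numbers, and Mki67, a proliferation marker gene with 3 listed summits, followed with at least 13. Cd47 and Rab5c shared the 3rd place. Chd4 shared the 5th with Ero1a and Sae1, which had 2 and 3 listed summits. Gsn and Ccdc88b fell to the 29th and 72nd places, both shared. Each of these numbers is a lower bound, because summits outside the listed stretch of a transcript and on transcripts without a listed summit leave no trace in the names.

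**Figure D3:**
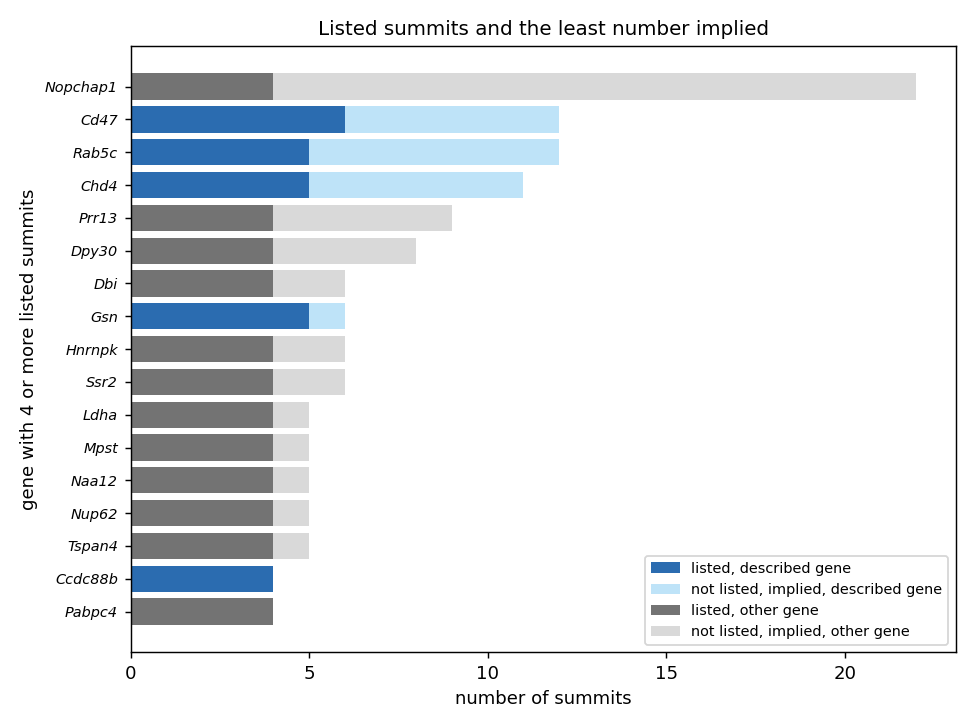
Number of listed summits (dark) and of further summits implied by letters and skipped peak numbers (light) for the 17 genes with 4 or more listed summits, with the 5 described genes in blue. Cd47 and Rab5c reach 12, Chd4 reaches 11, and Ccdc88b stays at 4, while Nopchap1 reaches 22.

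Most summits of the 5 genes were in coding sequence. Of their 25 summits, 19 were coding, or 76.0% (exact Clopper-Pearson 95% interval 54.9% to 90.6%), 6 were in the 3' untranslated region, or 24.0% (9.36% to 45.1%), and 0 were in the 5' untranslated region, which allows a share of up to 13.7%. Over all other genes the coding share was 47.6%, and over the 12 other genes with 4 summits it was 43.8% (21 of 48). Chd4, Gsn and Ccdc88b had coding summits alone, and among the other 12 genes Ldha and Pabpc4 did. Summits of 1 gene share their transcripts, so the interval is too narrow for a statement about genes, and no test was made. Summits with a letter made up 15 of 25, or 60.0%, against 26.0% in all other genes; a peak wide enough to hold several summits gives a gene more entries, so this share is tied to the choice.

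By percentile the folds of the 5 genes ranged over most of the list but did not reach its top. The whole list ran from a fold of 2.85 to 261, and the 5 genes from 6.17 to 32.3. Their median was 15.7 with quartiles of 12.3 and 22.3, against 11.4 over all other summits and 10.4 over the 48 summits of the other genes with 4. Their percentiles among all folds ran from 19.5 to 88.7, so none of the 25 was at or above the 90th percentile, a limit chosen after the values were seen. Medians by gene were 25.2 for Chd4, 22.3 for Rab5c, 19.0 for Cd47, 10.9 for Ccdc88b and 7.12 for Gsn.

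Within a gene the highest fold was 3.05 times the lowest in Chd4, 2.54 times in Gsn, 2.43 times in Rab5c, 2.07 times in Ccdc88b and 1.66 times in Cd47. The 12 other genes with 4 summits had a median ratio of 2.47 and a range from 1.50 to 5.50. In genes with 2 summits the median ratio was 1.42 (229 genes) and with 3 it was 1.78 (53 genes); this ratio tends to grow with the number of summits, so it is given here for each number and not ranked across them. The 12 genes that tied with Ccdc88b were Dbi, Dpy30, Hnrnpk, Ldha, Mpst, Naa12, Nopchap1, Nup62, Pabpc4, Prr13, Ssr2 and Tspan4, and their folds ran from 3.80 to 64.6.

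**Figure D4:**
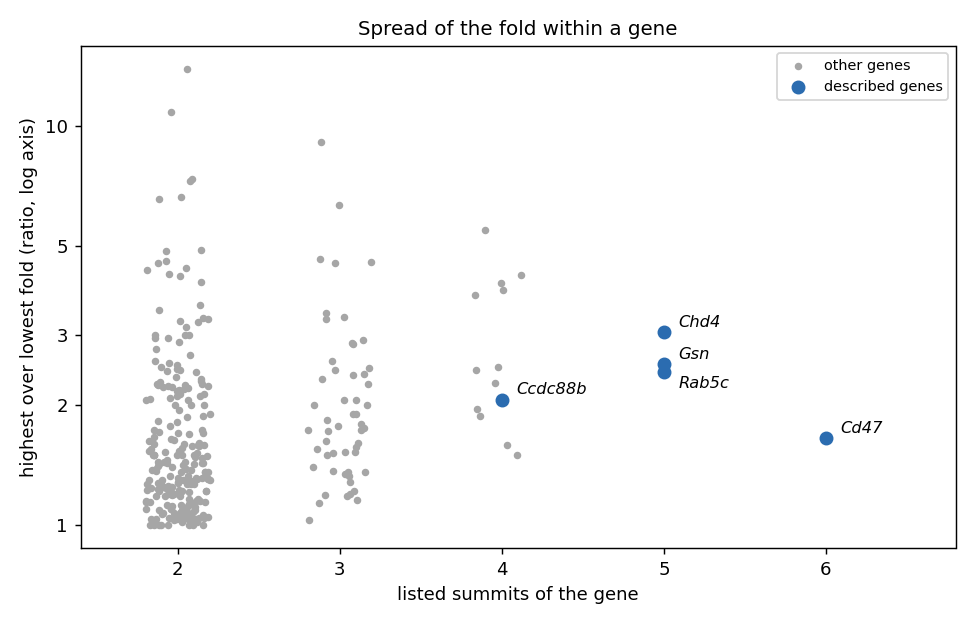
Highest over lowest fold within each gene with 2 or more listed summits, on a log axis, against the number of listed summits; grey points are moved sideways at random to keep them apart. The 5 blue genes lie between 1.66 and 3.05, and the grey genes with 4 summits between 1.50 and 5.50. Of the blue genes only Ccdc88b, at 2.07, has 4 summits. The ratio tends to grow with the number of summits, so the other blue genes have no grey genes of like number.

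Genes that work with the 5 were looked up in 6 lists of partners, beside a background of 6.70% of 21896 protein-coding genes with a listed summit. That background included genes these cells may not express, so shares above it are no result about the lists. Among 15 other NuRD genes 5 had a summit: the deacetylase gene Hdac1 with a fold of 21.8 in coding sequence, the methyl-CpG binding protein genes Mbd2 with 17.1 and Mbd3 with 6.65 and 4.75, Mta1 with 7.12 and 6.65, and Cdk2ap1 with 47.5 and 7.12. Only the strongest summit of Cdk2ap1 was higher than the highest of Chd4. Of 9 other CHD remodeller genes, Chd1 with 14.2 and Chd8 with 5.70 had a summit, both in the 3' untranslated region, and Chd3 and Chd5, the closest relatives of Chd4, had none listed.

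Of 23 ligands, partners and related signals of CD47, 3 had a summit: the integrin gene Itgb1 with 20.9, the phosphatase gene Ptpn6, which acts downstream of SIRP-alpha, with 16.6, 12.3 and 5.70, and the ubiquilin gene Ubqln2 with 11.9. Neither Sirpa nor Thbs1, the genes of the best known CD47 ligands, had a listed summit. Of 22 gelsolin family and actin genes 3 had one: the actin gene Actg1 with 79.3 and 19.5, and the capping protein genes Capza1 with 24.7 and Capzb with 16.1. The gelsolin relatives Scin, Capg, Flii, Svil and Vil1 had none listed.

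Of 32 Rab5 relatives, regulators and effectors 3 had a summit: Rab21 with 27.1, 9.49 and 4.27, the late endosomal GTPase gene Rab7 with 18.0 and 11.4, and Rabgef1, which encodes an activator of Rab5, with 11.4. The near relatives Rab5a and Rab5b had no listed summit. Of 14 other CCDC88, Hook and dynein genes 2 had one, the dynein chain genes Dync1li1 with 25.2 and 24.7 and Dync1h1 with 12.3, and neither Ccdc88a nor Ccdc88c did. A gene without a listed summit may be unexpressed, unmarked or outside the listed part of the call.

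In the gene table, Rab5c and Ccdc88b overlapped no other gene. Gsn overlapped the long noncoding RNA gene Gm39795, Cd47 overlapped Gm4633, and Chd4 overlapped the small RNA genes Mir7045 and Gm23751. Whether these genes overlap an exon or a listed summit was not checked. The labels and notes do not say whether strand was used, so where they do overlap one, fragments of the genes cannot be told apart. The table has 10 mRNA models for Cd47, 11 for Chd4, 8 for Gsn, 3 for Ccdc88b and 2 for Rab5c, and the list used 4, 3, 3, 2 and 3 Ensembl transcripts of these genes.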

How the data were processed

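The members and all gene lists were chosen with earlier results of these data known. Reads were trimmed with cutadapt, aligned with Bowtie2 and called with MACS2 on build GRCm39, per the submitters' processing notes; versions, parameters, the call's control and the list's filter are not given in the sources used here. Per the file headers, the authors' deposited list gives a summit position in nt on an Ensembl transcript, a region, a fold (ratio of depth to background), and p-value and q-value as −log10. Its peak names read as 1 call on merged ac4C libraries, so library depth is unknown and nothing was tested.

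Here the step between folds was found, fragments were computed as the fold over the step minus 1, and the −log10 p-values followed from the Poisson tail over 1.11 fragments within 0.000474%. Names and partners were looked up in RefSeq's genes for GRCm38.p6 (1475 of 1485 symbols; of the Rab5 list 33 of 35 entries were used, as Zfyve20 is an older name of Rbsn and Tbc1d3 was not matched). No sequence is printed, as no transcript sequence of the build was used here. Named genes are the 5 genes, partners with a summit, and genes with 4 summits (those with 3 only as a group); relatives without a summit, Nopchap1, Mki67, Ero1a and Sae1 were named after their values were seen. Scripts were tested on simulated lists; Python 3.11.15, pandas 2.3.3 and scipy 1.17.1 were used.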

Additional observations from a re-analysis of the deposited data

How the results depend on the processing

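No paired analysis was possible because each summit has 1 value for the merged libraries, and for the same reason leaving out a replicate and comparing with input or IgG gave no value. Of 67 alternative values, 54 stayed within 1.5 times of a count or within the counting interval of a value, and 13 moved. Some of the 54 could hardly move, so that number says little about how firm the results are. Fragments in place of fold is nearly the same value on another scale. Counting each transcript and position once changed no number of summits, and the coding share had an interval as wide as 54.9% to 90.6%. On the single transcript with most summits, the number fell by construction to 2 for Cd47, 2 for Chd4, 2 for Ccdc88b, 3 for Gsn and 3 for Rab5c. The least number implied by letters and skipped peak numbers, an alternative chosen after seeing the data, was 12 for Cd47, 11 for Chd4 and 12 for Rab5c. With only folds at or above the list's median, which leaves fewer summits by construction, Gsn kept 2 summits with a median fold of 15.2 and Ccdc88b kept 2, so neither would be among the genes with 4 or more; NuRD partners with a summit went from 5 to 3 and CHD remodellers from 2 to 1. Gaps of 50, 200 and 500 nt in place of 100 nt gave 4 to 6 positions in each gene. Without each gene in turn the coding share ran from 70.0% to 85.0%, and with 1 summit per peak it was 85.7%. The latter value depends on which summit of a peak is kept, since Cd47 had peaks with listed summits in both regions.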
